A study of Mus musculus with 4 samples.

Results

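The genes of the proteasome were followed here in sorted regulatory T cells (Treg cells) of mouse spleen, the Foxp3-expressing lymphocytes that hold immune responses in check. The members are all protein-coding genes of the deposited table whose symbol starts with Psma to Psmg and a number. There were 50 of them among 16328 protein-coding genes and 20837 genes in all. Of the 50, 47 are subunits, activators, inhibitors or assembly chaperones of the proteasome. The other 3 carry such a name for another reason and are given apart: Psmc3ip and Psme3ip1 are named after a binding partner, and Psme2b is a second gene copy of Psme2. The study compared 2 libraries labelled WT, with the genotype Foxp3YFP-CreKmt2d+/+, with 2 labelled cKO, with the genotype Foxp3YFP-CreKmt2dfl/fl. Both groups therefore carry the Foxp3YFP-Cre allele, which expresses Cre recombinase in cells that express Foxp3, and they differ in the floxed allele of Kmt2d, a histone H3 lysine 4 methyltransferase gene. The labels' extraction text describes macrophages grown from bone marrow in a study of a different gene and goes against the sample fields, so no age or sex is taken from it. Whether animals were pooled, or each library had its own mouse, is not given in the sources used here. The p-values therefore cover only how far the 4 libraries scatter, and this scatter may be technical.

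The proteasome is the protease complex that degrades proteins tagged with ubiquitin. Its barrel-shaped core particle has outer rings of alpha subunits, which gate the entry, and inner rings of beta subunits, of which Psmb5, Psmb6 and Psmb7 carry the catalytic sites. Regulatory particles at the ends, built from Psmc ATPases and Psmd subunits, bind ubiquitinated proteins, unfold them and feed them into the core. In immune cells and under interferon gamma the catalytic subunits are replaced during assembly by Psmb8, Psmb9 and Psmb10, which gives the immunoproteasome, and this form is known for making peptides for presentation on MHC class I molecules. Lymphocytes express the immunoproteasome genes without stimulation.

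The libraries held 28442416 to 35560491 counts. Levels are CPM, the usual counts relative to library size, adjusted by edgeR's TMM factors, and 3 counts, the limit that a count of 0 allows, are worth 0.0864 to 0.103 CPM. Where a mean is given, n = 2 libraries. Foxp3 itself was at 278 and 250 CPM in WT and at 170 and 180 CPM in cKO and was called lower (log2 fold change -0.59, edgeR adjusted p = 0.00493). Summed levels of 12 T cell markers lay between 4736 and 6436 CPM and those of 11 macrophage markers between 640 and 1029 CPM. The T cell sum was thus the larger in all 4 libraries. Because the lists hold different genes, the sums do not measure how much RNA each cell type gave. The libraries labelled cKO differed from those labelled WT in the makeup of marker transcripts. Counts of called markers are to be read beside all 13861 genes tested by edgeR. Of these, 31.6% were called at an adjusted p under 0.05, 16.5% higher and 15.1% lower. Of 12 T cell markers, 9 were lower in cKO (summed level 6157 to 6436 CPM in WT, 4736 to 5154 CPM in cKO). All 13 neutrophil markers were higher (80.4 to 206 CPM in WT, 653 to 1383 CPM in cKO), as were 8 of 8 basophil and mast cell markers (15.1 to 19.5 and 49.99 to 67.9 CPM), 7 of 8 CD8 T cell or NK cell markers (114 to 133 and 171 to 187 CPM) and 19 of 20 proliferation genes (1248 to 1405 and 1960 to 2081 CPM). Without WT 1 the calls were 5 of the basophil and mast cell list and 3 of the CD8 T cell or NK cell list, and without cKO 2 the latter was 3 as well. Further lists gave 1 of 11 macrophage markers higher and 1 lower (1 and 5 with DESeq2, 6 called without WT 1), 1 of 9 B cell markers higher (152 to 182 and 188 to 305 CPM, 8 called without cKO 1, and 0 on leaving out any 1 of the other libraries, with RLE scaling or with limma-voom) and 3 of 6 plasmacytoid dendritic cell markers higher (167 to 176 and 221 to 235 CPM). Of 5 tested erythroid markers 0 were called by edgeR, DESeq2 or limma-voom, and 0 at an unadjusted p of 0.05 (summed level 227 to 630 and 174 to 482 CPM). No marker was at 0 in all libraries. The part of these shifts in the proteasome results was not tested. In bulk samples fewer cells of a type and less RNA per cell cannot be told apart. The targeted gene Kmt2d measured 721 and 704 CPM in WT and 836 and 793 CPM in cKO and was called higher (log2 fold change 0.19, edgeR adjusted p = 0.0375). This checks neither label because the count can include exons outside the deleted part.

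The upstream stretches of 3 catalytic subunit genes are shown because the results turn on these genes: Psmb5 and Psmb9, which were higher in cKO, and Psmb6, the constitutive counterpart of Psmb9, which did not pass the test. They were read from RefSeq promoters of GRCm38.p6, the assembly of mm10, and end before the start site of each promoter's transcript. The Psmb5 stretch lies at chr14:54618023-54618245 on the minus strand, from 250 to 28 bases before the start. The Psmb6 stretch lies at chr11:70525327-70525356 on the plus strand and the Psmb9 stretch at chr17:34187331-34187360 on the minus strand, both from 30 bases before the start to the base next to it. The Psmb6 start used here is that of the promoter's transcript. The gene as a whole (chromosome 11, 70525324 to 70527858) begins slightly upstream of it, and the Psmb6 stretch shown lies within the gene. Capitals mark the antioxidant response element core TGACNNNGC, which Nfe2l1 and Nfe2l2 are known to bind, in Psmb5 and Psmb6, and the NF-Y box CCAAT, read here on the opposite strand as ATTGG, in Psmb9.
Psmb5: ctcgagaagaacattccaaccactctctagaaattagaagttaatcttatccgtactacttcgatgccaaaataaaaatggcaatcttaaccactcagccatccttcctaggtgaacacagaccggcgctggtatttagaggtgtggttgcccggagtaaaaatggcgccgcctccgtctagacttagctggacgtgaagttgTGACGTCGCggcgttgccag
Psmb6: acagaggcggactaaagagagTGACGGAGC
Psmb9: cctgcaccgcgcgcagccgctgATTGGaaa

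Promoters of 42 of the 50 members, 46 in all, were matched by gene number in the RefSeq table, each with 250 bases before and 50 after the start. Psma8, Psmb1, Psmb2, Psmb7, Psmc3, Psmd3, Psmd7 and Psmg2 had no entry. TGACNNNGC, on either strand, occurred in 6 of the 46 member promoters (13.04%), beside 12.4% of all 32851 promoters. They belong to Psmb5, Psmb6, Psmc6, Psmd9, Psmd12 and Psme4. The interferon-stimulated response element core (GAAA, any 2 bases, then GAAA, on either strand) occurred in 5 (10.9%, beside 3.44% of all), those of Psmb3, Psmd4, Psmd9, Psme1 and Psmg4. The promoters of Psmb8, Psmb9 and Psmb10 held no such match in this window. CCAAT, on either strand, occurred in 15 (32.6%, beside 37.4%). Of the 6 genes called below, Psmb5 and Psme4 held the first motif, Psmg4 the second and Psmb9 the third. These matches describe letters only. Psmb9 and Tap1, which encodes a subunit of the peptide transporter for class I presentation, start 226 bases apart on opposite strands and so share their upstream sequence.

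Per transcript length, the constitutive core and regulatory particle subunits ranged from 27.4 (Psmd11) to 110 (Psmb4) CPM per kb in WT. Levels here are per kilobase of the longest protein-coding transcript in GENCODE M21 (49 members matched by symbol). The longest transcript need not be the one expressed, so a level per kb may be too low, and the order of genes rests on this choice. For Psma2 and Psma3 it has 2911 and 2846 bases, whereas for the other alpha genes it has 1042 (Psma6) to 1239 (Psma5). The median WT level was 65.6 CPM per kb for the 7 alpha subunits, 90.4 for the 4 structural beta subunits and 65.9 for the 3 constitutive catalytic subunits. It was 53.3 CPM per kb for the 6 ATPases of the regulatory particle and 41.0 for the 8 lid subunits among the members. In WT the highest levels per kb belonged to Psme1 (230 and 232 CPM per kb), Psmb8 (173 and 179) and Psme2 (150 and 155), all 3 of them genes known to be induced by interferon gamma. The WT libraries of each of these genes did not overlap with those of the next. Assembly chaperones were far below the subunits, with medians of 17.4 CPM per kb in WT for the 4 of the core (Psmg1 to Psmg4) and 10.5 for the 3 of the regulatory particle base (Psmd5, Psmd9 and Psmd10). Psmb9, Psmb10 and Psmb6 were neighbours in this order in WT, at 80.7 and 86.3, 78.9 and 87.5, and 78.7 and 85.6 CPM per kb, and did not differ beyond their spread. In cKO the mean of Psmb9 was 107 CPM per kb, that of Psmb10 87.5 and that of Psmb6 78.6.

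**Figure D1:**
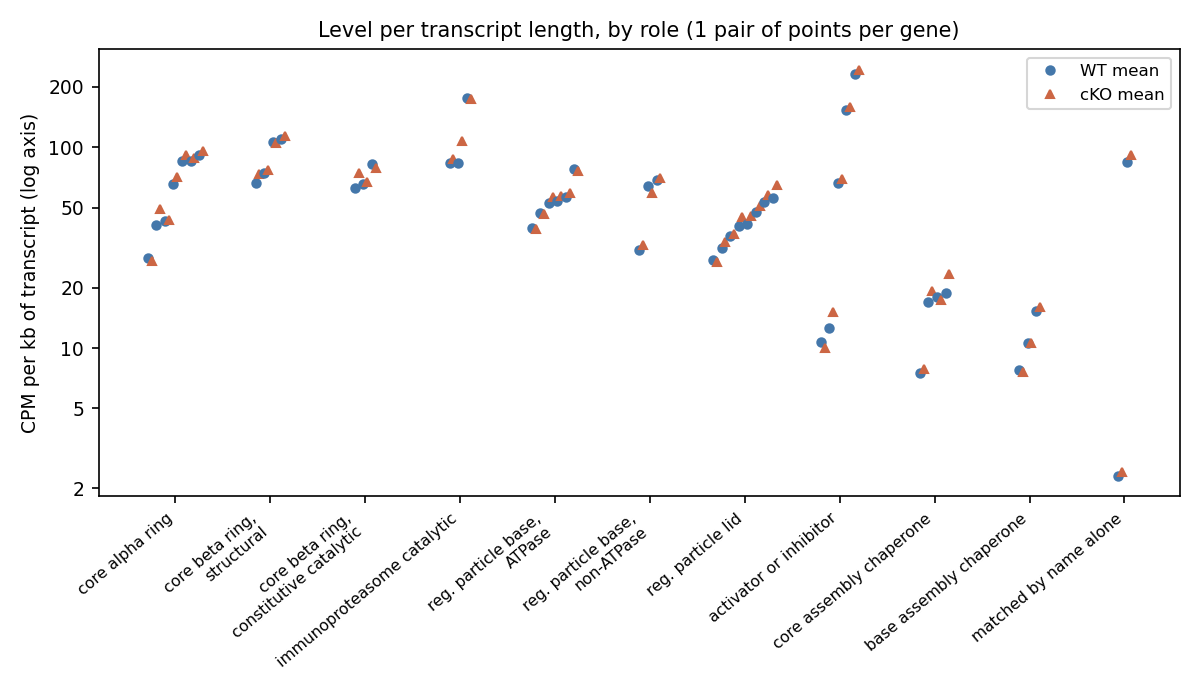
Level of each tested member with a transcript length, in CPM per kb of transcript on a log axis, by role in the complex, with circles for the mean of the 2 WT libraries and triangles for the mean of the 2 cKO libraries. WT means of constitutive core and regulatory particle subunits lie between 27.4 and 110 CPM per kb, those of Psme1, Psmb8 and Psme2 above them, and those of the assembly chaperones below.

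Psma8, the alpha subunit known from testis, was at 9 and 8 counts in WT and 5 and 5 counts in cKO (0.259 and 0.263, 0.172 and 0.145 CPM). It was the only member that the filter on low counts left out of the test. Psmb11, the catalytic subunit of thymic epithelium, has no row in the analysed table and was not analysed here.

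Most proteasome genes differed little between the groups. Of the 49 members tested, 6 were higher in cKO and 0 lower (edgeR quasi-likelihood test, adjusted p under 0.05), and 43 did not pass. Those 12.2% called stand beside 31.6% of all 13861 genes tested, of which 16.5% were higher and 15.1% lower. Among the 8767 tested genes with a mean of 10 CPM or more 33.6% were called. At the looser limit of an edgeR adjusted p under 0.1, 16.3% of the tested members were called, beside 40.3% of all tested genes. In edgeR 11 members had an unadjusted p under 0.05, the 6 called and Psma1, Psmb2, Psmd6, Psmd7 and Psmd14, and 0 of them were lower. DESeq2 and limma-voom also called 0 lower. The 6 that rose were the immunoproteasome subunit gene Psmb9, the constitutive catalytic subunit gene Psmb5, the alpha subunit gene Psma5, the lid subunit gene Psmd8, the activator gene Psme4 and the core assembly chaperone gene Psmg4. The number rests on few libraries: 1 member was called without WT 1 (Psmb9), 3 without WT 2 (Psma5, Psmb5 and Psmb9), 1 without cKO 1 (Psmb9) and 2 without cKO 2 (Psmb9 and Psme4). DESeq2 called 2 (Psmb9 and Psme4), which is 4% of the members it tested, beside 20.01% of all genes it tested. Calls among all tested genes also fell whenever a library was left out, as given in the last section. The losses among the members, and those in the lists below, are therefore to be read beside that fall.

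The changes were small in size as well. Log2 fold changes of the 49 tested members ran from -0.11 (Psmd4) to 0.36 (Psmb9), with a median of 0.064 beside 0.0003 for all tested genes. The median absolute log2 fold change was 0.068 over these members, 0.19 over all tested genes and 0.13 over the tested genes with a mean of 10 CPM or more, a level that 47 of the members reach. Differences under 1.2-fold were found in 46 of the 49 (93.9%), beside 59.5% of all tested genes and 73.2% of those at 10 CPM or more. SE of the members' log2 fold changes had a median of 0.053 and ran from 0.045 to 0.16. The 95% confidence intervals of the 43 uncalled members lay between -0.33 and 0.46, the widest being that of Psmc3ip at about 3 CPM. More members leaned up than down. Both cKO libraries lay above both WT libraries for 25 of 49 members (51.0%, beside 35.1% of all tested genes), below them for 4 (8.16%, beside 30.9%), and the groups overlapped for 20. With another scaling the median log2 fold change was 0.045 (RLE) or 0.092 (upper quartile), and 35 or 42 of the 49 were above 0, compared with 36 under TMM.

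**Figure D2:**
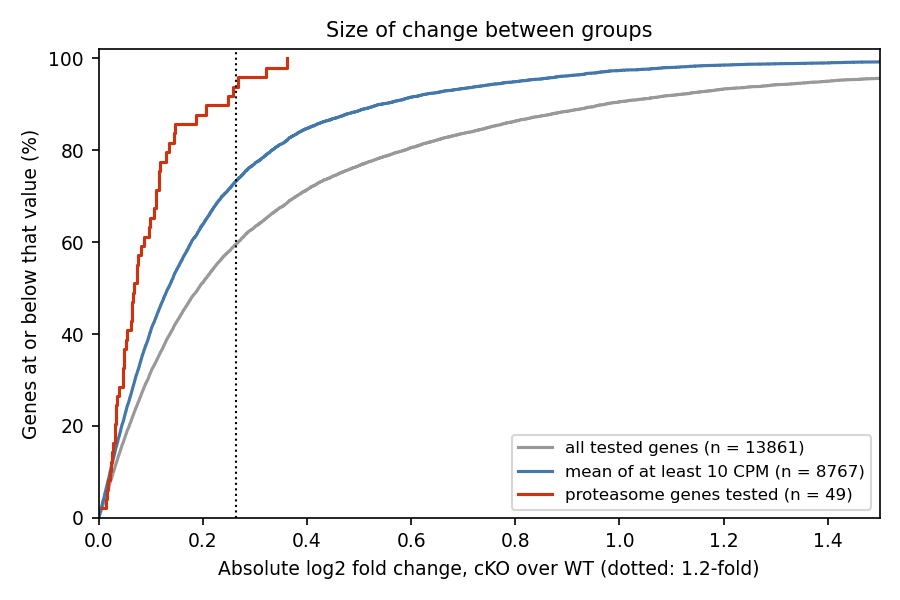
Share of genes (%) at or below each absolute log2 fold change between cKO and WT, for the 49 proteasome genes tested (red), the 8767 tested genes with a mean of 10 CPM or more (blue) and all 13861 tested genes (grey), the axis ending at 1.5. At the dotted line of 1.2-fold the red curve has reached 93.9%, the blue 73.2% and the grey 59.5%.

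**Figure D3:**
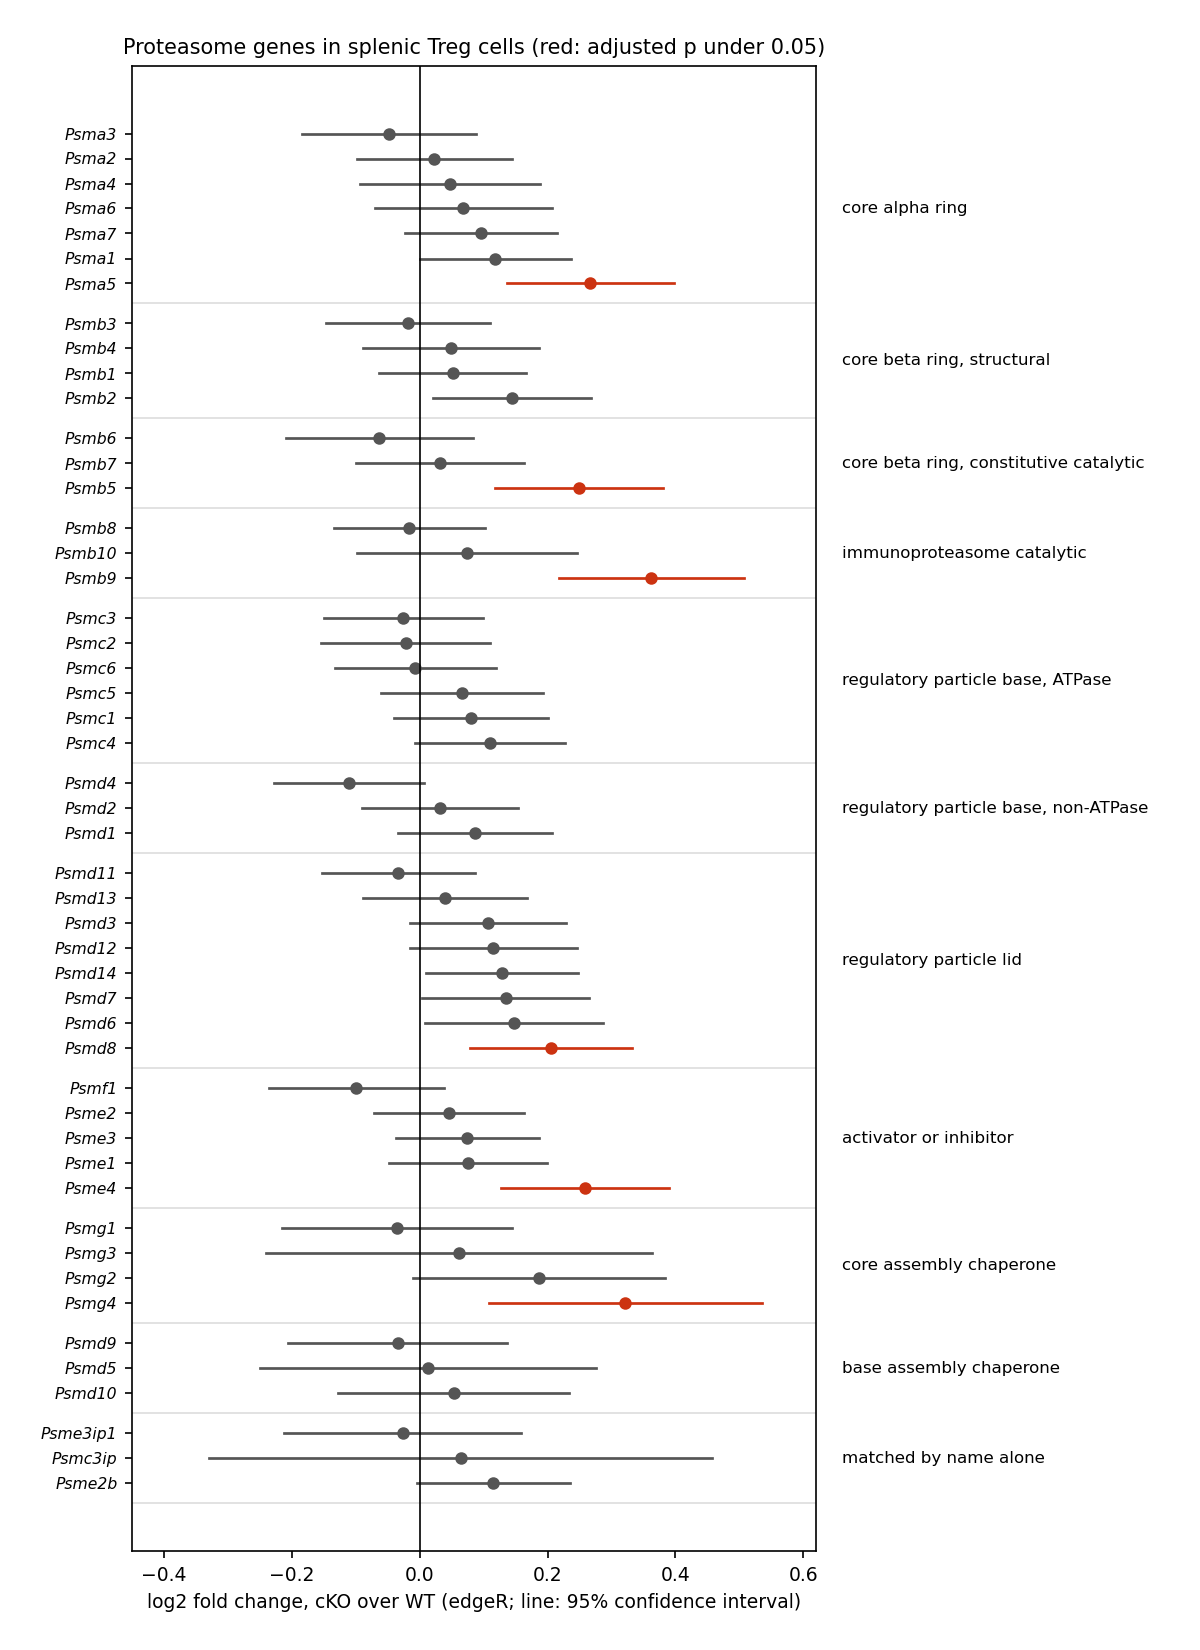
Log2 fold change (cKO over WT, points) with its 95% confidence interval (lines) for each tested member, ordered by role, with the 6 called members in red. One called gene lies in each of 6 roles, and the intervals of most others include 0.

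The 3 inducible catalytic subunits of the immunoproteasome did not move together. Psmb9 (gene number 16912, mm10 chromosome 17, 34182030 to 34187330), which replaces Psmb6 in the immunoproteasome, measured 109 and 117 CPM in WT and 149 and 141 CPM in cKO. Both cKO libraries were above both WT libraries. The log2 fold change was 0.36 (SE 0.058, 95% confidence interval 0.22 to 0.51, edgeR quasi-likelihood adjusted p = 0.00854), the largest of the tested members. With all libraries kept, its call held in each alternative. Among these, the crossed block (WT 1 with cKO 2, WT 2 with cKO 1) was added after the data were seen and adds no independent support. Over all 13 alternatives that refitted the genes, the log2 fold change was 0.31 to 0.41. The weakest of these was the fit without WT 1 (edgeR adjusted p = 0.0460).

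Psmb8 (gene number 16913, chromosome 17, 34198195 to 34201454), the inducible counterpart of Psmb5 and a close neighbour of Psmb9 in the MHC region, was the most abundant of the catalytic subunits. It measured 281 and 292 CPM in WT and 283 and 284 CPM in cKO. The groups overlapped, with a log2 fold change of -0.016 (95% confidence interval -0.13 to 0.10, edgeR adjusted p = 0.86). Psmb10 (gene number 19171, chromosome 8, 105935728 to 105938392), the counterpart of Psmb7, measured 103 and 115 CPM in WT and 118.5 and 111 CPM in cKO. Here too the groups overlapped, with a log2 fold change of 0.074 (95% confidence interval -0.099 to 0.25, edgeR adjusted p = 0.502).

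Within a library, the CPM of Psmb9, not corrected for transcript length, was 0.388 and 0.400 of that of Psmb8 in WT. In cKO it was 0.526 and 0.498 of the Psmb8 CPM. This is a difference of 0.38 on the log2 scale, and the groups did not overlap. The exact 2-sided permutation test gave p = 0.333, the smallest value that 2 against 2 libraries allow. The ratio was chosen after the values were seen.

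In the Psmb9 locus, GENCODE M21 has an exon of Psmb9 that overlaps one of Tap1 on the opposite strand, whereas the RefSeq genes do not overlap. Reads there cannot be told apart if strand was not used in counting, which is not given in the sources used here. Tap1, singled out after its values were seen, measured 339 and 347 CPM in WT and 389 and 379 CPM in cKO, a log2 fold change of 0.16 (SE 0.047, edgeR adjusted p = 0.0463).

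Among the constitutive catalytic subunits Psmb5 was higher in cKO, and Psmb6 and Psmb7 did not pass. Psmb5 (gene number 19173, chromosome 14, 54614120 to 54617995), which cleaves after hydrophobic residues, measured 54.5 and 57.5 CPM in WT and 67.3 and 65.8 CPM in cKO. The cKO libraries were both above the WT libraries, with a log2 fold change of 0.25 (SE 0.053, edgeR adjusted p = 0.0188). Leaving out WT 1, cKO 1 or cKO 2 ended this call, with edgeR adjusted p of 0.1003, 0.106 and 0.0801, and DESeq2 gave 0.0831. Psmb6 measured 62.8 and 68.3 CPM in WT and 63.1 and 62.4 CPM in cKO, and Psmb7 75.3 and 77.6 CPM in WT and 76.2 and 80.0 CPM in cKO. Their groups overlapped, with 95% confidence intervals of the log2 fold change from -0.21 to 0.083 and from -0.10 to 0.16. RefSeq lists 1 pseudogene named after Psmb5, 2 after Psmb6 and 2 after Psmb7, so that reads of these genes may have been split or lost in counting. Pseudogenes under other names were not counted, for these or any other members.

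**Figure D4:**
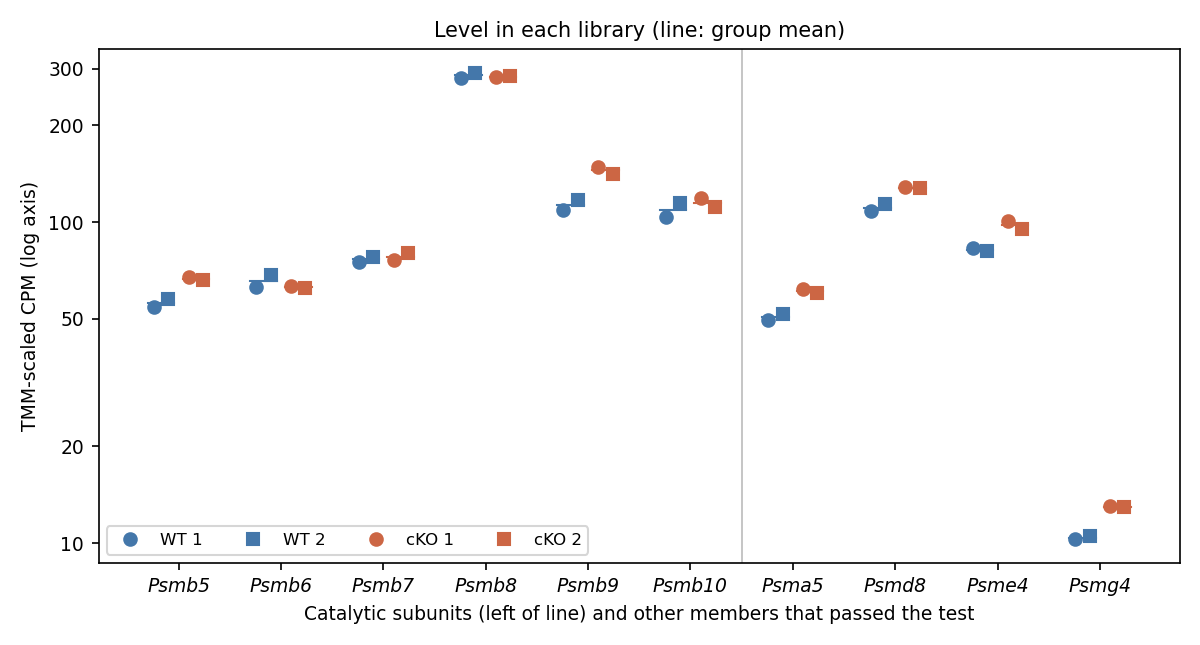
TMM-scaled CPM on a log axis in each library for the 6 catalytic subunits (left of the line) and the other 4 members that passed the test (right), with blue for WT, orange for cKO and short lines for group means. Blue and orange points separate for Psmb5 and Psmb9 and for the 4 genes on the right, and overlap for Psmb6, Psmb7, Psmb8 and Psmb10.

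Each inducible subunit was then set against the constitutive subunit whose place it takes, as a ratio within a library, which does not depend on scaling. These are ratios of CPM without correction for transcript length, which alters their size but not the difference between groups. Per kb of the longest transcript, Psmb8 over Psmb5 was 2.85 and 2.80 in WT. In the same libraries Psmb9 over Psmb6 was 1.02 and 1.01 per kb, and Psmb10 over Psmb7 1.22 and 1.31. The 3 ratios went different ways. Psmb8 over Psmb5 was 5.16 and 5.08 in WT and 4.20 and 4.32 in cKO, a difference of -0.26 on the log2 scale (2.36 ± 0.016 in WT, 2.09 ± 0.027 in cKO, SD, n = 2, exact 2-sided permutation p = 0.333). Psmb9 over Psmb6 was 1.74 and 1.71 in WT and 2.36 and 2.27 in cKO, a difference of 0.42 (0.78 ± 0.016 in WT, 1.21 ± 0.039 in cKO, exact permutation p = 0.333). Psmb10 over Psmb7 was 1.37 and 1.48 in WT and 1.56 and 1.39 in cKO, with overlapping groups and a difference of 0.044 (exact permutation p = 0.667). Psmb8 over Psmb5 was thus lower in both cKO libraries than in both WT libraries, Psmb9 over Psmb6 higher in both, and Psmb10 over Psmb7 in neither order. With 2 libraries a group no p under 0.333 can be reached. Adjusted by Benjamini-Hochberg over these 3 ratios, the smallest p is 0.5. The Psmb10 ratio turned to -0.0082 without WT 1 and to -0.038 without cKO 1.

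**Figure D5:**
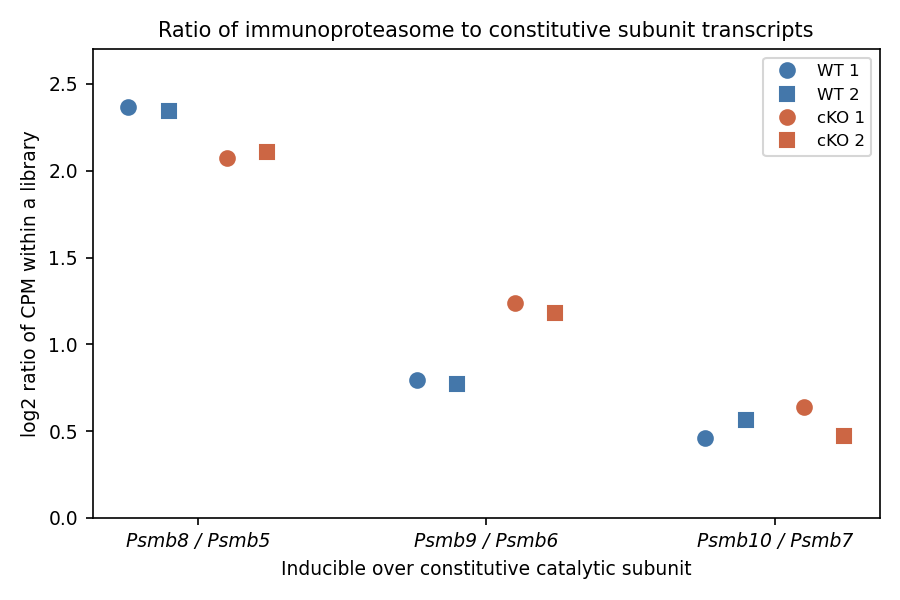
Log2 ratio of the CPM of each inducible catalytic subunit to its constitutive counterpart within each library, with blue for WT, orange for cKO, circles for replicate 1 and squares for replicate 2. Orange lies below blue for Psmb8 over Psmb5 and above it for Psmb9 over Psmb6, and the colours mix for Psmb10 over Psmb7.

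Counts by role, here and in the next paragraphs, are to be read beside the 31.6% of all tested genes called (16.5% higher, 15.1% lower). The alpha ring has 7 tested genes, of which 1 rose and 6 went uncalled, with a median log2 fold change of 0.068. The one was Psma5 (gene number 26442, chromosome 3, 108256926 to 108279952). It measured 49.4 and 51.8 CPM in WT and 61.8 and 60.0 CPM in cKO, without overlap, a log2 fold change of 0.27 (SE 0.053, edgeR adjusted p = 0.0149). It was not called once WT 1, cKO 1 or cKO 2 was left out, where the edgeR adjusted p was 0.0852, 0.091 and 0.0626, nor by DESeq2 (0.0649). RefSeq lists 1 pseudogene named after Psma5, and in GENCODE M21 the antisense gene 1700010K24Rik overlaps Psma5 exons. The other alpha genes had log2 fold changes from -0.048 (Psma3) to 0.12 (Psma1). None of the 4 structural beta genes passed. Psmb2 came nearest, with 56.1 and 57.9 CPM in WT and 62.3 and 63.8 CPM in cKO and a log2 fold change of 0.14 (edgeR adjusted p = 0.0779). Psmb1, Psmb3 and Psmb4 lay between -0.018 and 0.052.

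Of the 17 regulatory particle genes among the members 1 rose and 16 went uncalled, with a median log2 fold change of 0.080. Of all tested genes, 31.6% were called and 16.5% were higher. All 6 ATPase genes, which unfold substrates, and all 3 other members of the base went uncalled. The ATPase values ran from -0.025 (Psmc3) to 0.11 (Psmc4). Psmd4, which encodes a ubiquitin receptor, had the lowest value of all tested members, with 111 and 114 CPM in WT and 104 and 105 CPM in cKO. Its log2 fold change was -0.11 (95% confidence interval -0.23 to 0.0067, edgeR adjusted p = 0.136). The small lid subunit gene Sem1 is not matched by the naming rule of the members. It is counted among the partners below, where it rose (edgeR adjusted p = 0.0305). Of the 8 lid genes that are members, 6 had both cKO libraries above both WT libraries, beside 35.1% of all tested genes, and 1 passed. This was Psmd8 (gene number 57296, chromosome 7, 29174187 to 29180673), with 108 and 114 CPM in WT and 128.5 and 127.5 CPM in cKO, without overlap, a log2 fold change of 0.21 (SE 0.0515, edgeR adjusted p = 0.0301). Leaving out any library ended this call, with edgeR adjusted p of 0.143 (WT 1), 0.0564 (WT 2), 0.149 (cKO 1) and 0.117 (cKO 2), as did DESeq2 (0.0882). Psmd14, which encodes the deubiquitinase of the lid, had a log2 fold change of 0.13 (edgeR adjusted p = 0.0947).

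Of the 4 activator genes and the inhibitor gene Psmf1, 1 rose and 4 did not pass. Psme4 (gene number 103554, chromosome 11, 30771775 to 30881150) encodes a large single-chain activator known for binding acetylated histones. It measured 82.9 and 81.1 CPM in WT and 100.8 and 95.4 CPM in cKO, without overlap, a log2 fold change of 0.26 (SE 0.053, edgeR adjusted p = 0.0168). With WT 1, WT 2 or cKO 1 left out the edgeR adjusted p was 0.064, 0.0746 and 0.116, and the call ended, whereas DESeq2 kept the call (0.0349). Psme1 and Psme2 encode the activator that interferon gamma induces and that is often found with the immunoproteasome. Psme1 measured 256 and 258 CPM in WT and 264 and 278 CPM in cKO, and Psme2 145 and 149 CPM in WT and 152 and 152 CPM in cKO. Although the groups did not overlap for either gene, neither passed, with 95% confidence intervals of -0.048 to 0.20 and -0.071 to 0.16 on the log2 scale. Psme2b (71.1 and 70.0 CPM in WT, 77.2 and 75.6 CPM in cKO) is a copy of Psme2, and counting could have split reads between them, so the values of both are uncertain. Psme3, which encodes a nuclear activator, measured 176 and 177 CPM in WT and 185 and 186 CPM in cKO (edgeR adjusted p = 0.281). Psmf1 had a log2 fold change of -0.099 (edgeR adjusted p = 0.238), with both cKO libraries below both WT libraries.

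Of the 4 chaperone genes of core assembly, 1 rose, Psmg4 (gene number 69666, chromosome 13, 34162964 to 34178172). It measured 10.26 and 10.53 CPM in WT and 13.03 and 12.95 CPM in cKO, without overlap, a log2 fold change of 0.32 (SE 0.086, edgeR adjusted p = 0.0375). The call did not outlast the loss of any library, the edgeR adjusted p being 0.154 for WT 1, 0.101 for WT 2, 0.17 for cKO 1 and 0.153 for cKO 2. It also ended with DESeq2 (0.316) and with counts thinned to the smallest library (0.0542). The partner genes Psmg1, Psmg2 and Psmg3 had log2 fold changes of -0.035, 0.19 and 0.062. None of the 3 chaperone genes of the base passed (-0.034 to 0.054), nor did the 3 genes matched by name alone (-0.027 to 0.12).

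Genes that work with the proteasome were looked at in 4 lists, whose counts are to be read beside the 31.6% of all tested genes called (16.5% higher, 15.1% lower) and their median log2 fold change of 0.0003. Among 14 tested partners, deubiquitinases and regulators of the proteasome, 4 rose, 0 fell and 10 did not pass (28.6% called, near the 31.6% of all tested genes, median log2 fold change 0.077). Uchl5, a deubiquitinase bound to the regulatory particle, rose by 0.36 (27.1 and 29.8 CPM in WT, 36.9 and 36.2 CPM in cKO). The unfolding ATPase gene Vcp rose by 0.20, the small lid subunit gene Sem1 by 0.22 and the adaptor gene Ecpas by 0.18 (edgeR adjusted p from 0.0139 to 0.0454 for the 4). Pomp, the maturation factor of new core particles, measured 75.6 and 81.4 CPM in WT and 90.3 and 88.8 CPM in cKO (edgeR adjusted p = 0.0516). Nfe2l1, which encodes a transcription factor for proteasome genes, did not pass (log2 fold change 0.062). The list count was 0 without WT 1 or cKO 1 and 1 without WT 2 or cKO 2. DESeq2 called 2 partners, both higher, and 0 partners were lower at an unadjusted p of 0.05 in edgeR.

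Of 18 tested genes that supply and shuttle ubiquitin, 5 fell and 13 did not pass (median log2 fold change -0.037). The 27.8% called are near the 31.6% of all tested genes. None was called higher by edgeR, DESeq2 or limma-voom, and 1 was higher at an unadjusted p of 0.05 in edgeR. The polyubiquitin gene Ubb measured 880 and 873 CPM in WT and 759 and 790 CPM in cKO, without overlap. It fell, with a log2 fold change of -0.18 (SE 0.049, edgeR adjusted p = 0.0394). The shuttle factor gene Ubqln2 fell by 0.29, the ubiquitin ligase gene Ube3c by 0.20 and the chaperone gene Bag6 by 0.18. Rps27a, which encodes ubiquitin fused to a ribosomal protein, did not pass (0.055). The count of 5 became 0 without WT 1 or cKO 1, 1 without WT 2, 2 without cKO 2 and 3 with upper-quartile scaling.

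Among 14 genes of class I antigen presentation 3 rose and 2 fell (35.7% called, near the 31.6% of all tested genes, median log2 fold change 0.015). The peptide-trimming aminopeptidase gene Erap1 (0.30), the chaperone gene Canx (0.25) and Tap1 rose, whereas the aminopeptidase genes Lnpep and Tpp2 had log2 fold changes of -0.40 and -0.17 and fell. The class I heavy chain genes H2-K1 and H2-D1 and the light chain gene B2m did not pass. This count was 0 without WT 1, 2 without WT 2 and 1 without cKO 1 or cKO 2. Of 25 interferon response genes 10 rose and 3 fell (52.0% called, beside 31.6% of all tested genes, median log2 fold change 0.11). Ifitm3 rose by 0.98, Gbp2 by 0.46, Gbp3 by 0.41 and Irf8 by 0.54 on the log2 scale. Irf8 is also counted among the plasmacytoid dendritic cell markers above. Irf1, a transcription factor gene known for inducing Psmb9, fell from 326 and 342 to 262 and 280 CPM (log2 fold change -0.30, edgeR adjusted p = 0.0126). Isg20 and Usp18 fell as well (-0.34 and -0.24). Among the 12 that did not pass, Ifit1, Ifit3, Isg15, Rsad2 and Irf7 had overlapping groups. Their log2 fold changes ran from -0.14 (Rsad2) to 0.0095 (Ifit1). The count of 13 called became 7 without WT 1 or WT 2, 5 without cKO 1 and 10 without cKO 2. Neutrophil markers were higher in these libraries as well (80.4 to 206 CPM in WT, 653 to 1383 CPM in cKO), and their part in the rises of Psmb9 and of the interferon genes was not tested.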

How the data were processed

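The deposited table holds the authors' whole-number read counts per gene for 4 libraries, grouped here by title. The genome build was mm10 per the submitters' processing notes. No source used here gives the aligner, counter, annotation, kit or strand. Genes passing filterByExpr (minimum count 10, minimum total 15), 13861 in all, were compared with edgeR 4.0.16 in R 4.3.3 by the quasi-likelihood F-test on group alone, 2-sided, with TMM scaling. P-values were adjusted by Benjamini-Hochberg over these genes, and calls have an adjusted p under 0.05. SE comes from dividing the absolute log2 fold change by the root of F. Limits from counts cover counting error only. The test was checked on simulated counts whose changes were larger than those of any member. The check therefore does not cover changes of the members' size, and no result here rests on it. Within-library ratios were compared by exact permutation (SciPy 1.17.1). The members and lists were chosen with earlier results of these data known. The text gives in full the catalytic subunits, Psme1, Psme2, Psma8 and called members, and of other lists up to 4 genes with the smallest p; further names were picked after their values were seen. Paaf1 and Mx1 of the lists have no row in the table and were not analysed here. Alternatives included DESeq2 1.42.0, limma-voom (limma 3.58.1), other scalings and filters, thinning, a replicate block and leaving out each library. The crossed block and the ratio of Psmb9 to Psmb8 were added after the data were seen. Some genes of the ubiquitin list are counted but not reported here by name.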

Additional observations from a re-analysis of the deposited data

How the results depend on the processing

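Of the 6 proteasome genes called, all 6 were called again under RLE and upper-quartile scaling, by limma-voom, without a filter and with at least 5 CPM in 2 libraries, 5 with thinned counts and 2 with DESeq2. No member was called lower in any alternative run. Leaving out 1 library gave 1 to 3 called members and 1869 to 2747 called genes, compared with 4380. With such a fit the lone library of a group is assumed to vary like the others. An adjusted p under 0.1 gave 8 members. DESeq2 called 2876 genes in all. The labels give both groups the numbers 1 and 2, but nothing says that they mark shared mice, and with 2 pairs the numbers do not pair the libraries. The replicate block called 1 member (Psmb9) and 2292 genes, with 0 proteasome partners, 1 ubiquitin gene, 2 class I genes and 8 interferon genes. Deviations of same-numbered libraries from their group means correlated at -0.323 over 13861 genes, and the crossed block called 14 members, all higher, and 6713 genes. Upper-quartile scaling called 3 ubiquitin genes. Leaving out 1 library gave 0 to 1 partners, 0 to 2 ubiquitin genes, 0 to 2 class I genes and 5 to 10 interferon genes. The difference in the ratio of Psmb10 over Psmb7 reversed to -0.0082 without WT 1 and to -0.038 without cKO 1, and ran from there to 0.13. The other ratios kept their direction. The causes were not tested, except that leaving out a library leaves fewer samples. Depth limits Psma8, at 5 to 9 counts a library.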
